A study of Mus musculus with 8 samples.

Results

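The MiT/TFE family comprises 4 genes in the mouse, Tfec, Mitf, Tfe3 and Tfeb, and all 4 were measured here in dendritic cell (DC) progenitors, among 13356 genes that passed the filter on low signal and 19938 genes with a probe set of their own. Tfec was chosen by its measured log2 signal, as 1 of the largest decreases from Zeb2hi cells, so its differences from Zeb2hi cells are given as a description with no test, whereas Mitf, Tfe3 and Tfeb were included by family. Probe sets assigned to exactly 1 gene numbered 5 for the 4 genes, 2 of them for Mitf, and 4 of the 5 passed the filter, 1 for each gene. The second Mitf probe set did not pass.

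The cells were sorted from bone marrow of mice heterozygous for a Zeb2-GFP fusion reporter, an allele that all 3 groups carried. The groups were common DC progenitors (CDPs) with high reporter signal (Zeb2hi CDPs, 3 arrays), CDPs with low reporter signal (Zeb2low CDPs, 3 arrays) and pre-CD8 DCs (2 arrays), the committed precursors of the cDC1 lineage of CD8a+ DCs. No strain, age, sort marker or origin of the replicates from separate mice was given in the sources used here, and the p-values therefore reflect variation among these arrays, part of which may be technical. The study set these populations along a developmental axis. RNA was amplified from small amounts and hybridised to Affymetrix arrays, and in such bulk samples fewer cells of a type and less RNA per cell cannot be told apart.

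MiT/TFE proteins are basic helix-loop-helix leucine zipper transcription factors that bind E-box sequences as homodimers or as heterodimers with each other. TFEB, TFE3 and MITF are held in the cytoplasm when nutrient-sensing mTORC1 kinase phosphorylates them at the lysosome, and enter the nucleus when the phosphatase calcineurin removes those marks, where TFEB and TFE3 drive genes of lysosomes and autophagy through E-boxes known as CLEAR elements. MITF is best known in melanocytes, mast cells and osteoclasts, TFEC is largely restricted to the macrophage lineage, and TFEB in DCs favours presentation on MHC class II over cross-presentation. A transcript level does not measure how much of these proteins is in the nucleus.

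The promoter of Tfec is shown because Tfec carried the largest change in the family. It is the 250 bases before the start in the RefSeq promoter table (GRCm38.p6, chr6:16898442-16898691, minus strand, printed in the direction of transcription). Capitals mark AGGAAGT, a sequence of the type bound by ETS factors such as PU.1, the product of Spi1, at position -71 from the start.
Tfec promoter: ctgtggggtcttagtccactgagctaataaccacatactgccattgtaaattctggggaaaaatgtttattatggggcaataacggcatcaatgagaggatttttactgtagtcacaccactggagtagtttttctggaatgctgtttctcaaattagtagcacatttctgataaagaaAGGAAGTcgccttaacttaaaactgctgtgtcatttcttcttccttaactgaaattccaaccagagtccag
AGGAAGT, searched on both strands, was found in 7.69% of the 32851 promoters in the table, and among the family only in the Tfec window. The window held neither CACGTG, the core of an E-box bound by the family, nor CATGTG, the core of the M-box bound by MITF, nor CACCTG, the E2-box bound by ZEB proteins, on either strand. These were found in 6.02%, 12.3% and 17.2% of all promoters. The family had 9 promoters in the table, 1 for Tfec, 3 for Mitf, 2 for Tfe3 and 3 for Tfeb. None held CACGTG or CATGTG, and CACCTG was found in 1, at position -136 from the second start of Mitf. A match here is a description of letters, and no match says only that the letters are not in these windows.

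All values are log2 of the deposited array signal, and array medians lay between 4.91 and 5.14. The labels were checked on Zeb2 itself, whose signal was 9.45, 9.05 and 9.32 in Zeb2hi CDPs, 7.49, 7.69 and 7.86 in Zeb2low CDPs and 6.93 and 6.53 in pre-CD8 DCs. The 3 groups did not overlap for Zeb2. Zeb2hi CDPs lay above Zeb2low CDPs, as their labels say, and pre-CD8 DCs, whose label gives no level, were lowest. All 10 markers of DC progenitors, Flt3, Irf8 and Csf1r among them, were above the array's own 40th percentile on every array. Of 10 markers of cDC1 commitment, 6 to 7 were above it in Zeb2hi CDPs, 8 in Zeb2low CDPs and 9 in pre-CD8 DCs. Xcr1, a chemokine receptor of mature cDC1 cells, was at 7.57 and 5.03 in pre-CD8 DCs and between 3.49 and 4.09 in the CDPs.

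Tfec was high in Zeb2hi CDPs and low in both other populations. Its log2 signal was 9.07, 8.10 and 8.48 in Zeb2hi CDPs, 6.19, 5.11 and 6.58 in Zeb2low CDPs, and 6.83 and 5.42 in pre-CD8 DCs. All 3 Zeb2hi arrays lay above all 5 others, while the Zeb2low and pre-CD8 arrays were interspersed. Group means were 8.55 ± 0.49 (SD, n = 3), 5.96 ± 0.76 (SD, n = 3) and 6.12 ± 0.996 (SD, n = 2). Zeb2low CDPs thus had 6.02-fold less Tfec signal than Zeb2hi CDPs (log2 difference -2.59), the 6th largest decrease of 13356 genes, with a gap of 1.51 between the nearest arrays. Pre-CD8 DCs had 5.38-fold less than Zeb2hi CDPs (log2 difference -2.43), the 17th largest decrease in that comparison, with a gap of 1.27. Both comparisons use the same Zeb2hi arrays. Of all genes, 41.8% had no overlap between Zeb2low and Zeb2hi CDPs and 21.5% were lower with none. Between pre-CD8 DCs and Zeb2hi CDPs these shares were 48.4% and 27.1%. These are given for scale only, because Tfec was chosen for its decrease.

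The comparison that the choice did not use was that of pre-CD8 DCs with Zeb2low CDPs, and there Tfec did not pass the test. Its Zeb2low arrays are also those of the decrease for which Tfec was chosen, so this test is not independent of the choice. The log2 difference was 0.16 ± 0.52 (SE; 95% interval -1.01 to 1.34; adjusted p = 0.916). Tfec varied strongly within groups, as this wide interval reflects. Its residual SD of 0.73 on the log2 scale was at percentile 97.6 of the genes tested, whose median was 0.227. Without each array in turn, the difference between pre-CD8 DCs and Zeb2low CDPs ranged from -0.54 to 0.87, so its sign rested on single arrays. It was -0.43 without array 1 of both groups. The decrease from Zeb2hi to Zeb2low CDPs ranged from -2.90 to -2.17 and that from Zeb2hi CDPs to pre-CD8 DCs from -3.13 to -1.72. CDP arrays with the same replicate number differed by -2.88, -2.99 and -1.90.

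**Figure D1:**
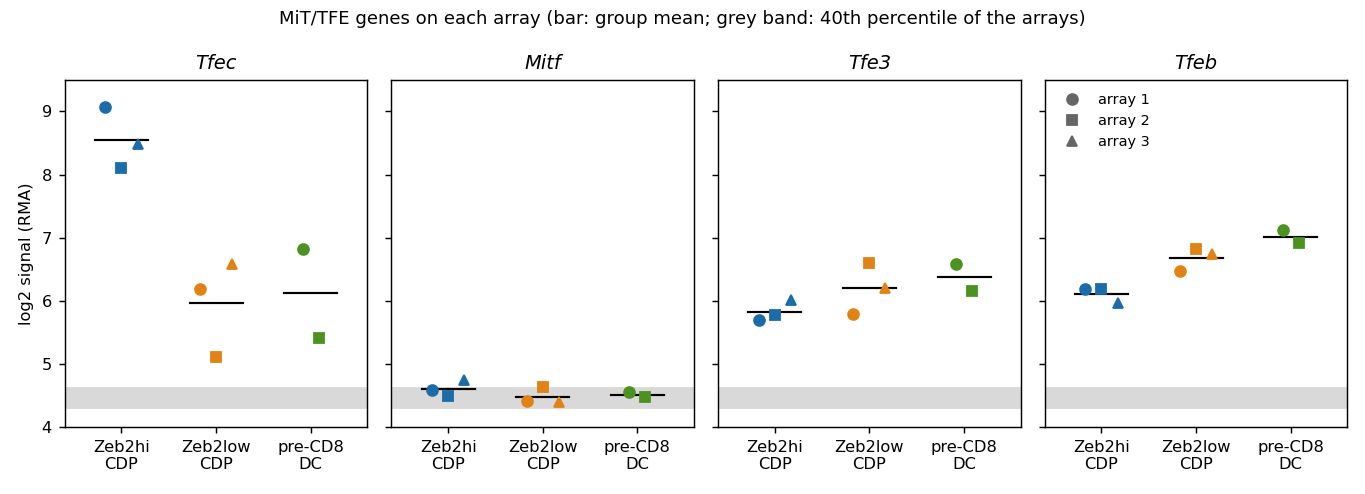
Log2 array signal of the 4 MiT/TFE genes on each of the 8 arrays, by group. Points are arrays and bars are group means. Tfec lies between 8.10 and 9.07 in Zeb2hi CDPs and between 5.11 and 6.83 in the other groups, and the Tfeb groups do not overlap. Between 2 groups, 27.7% to 48.4% of all genes do not overlap.

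Tfeb, the family member most studied as a driver of lysosome biogenesis, moved in the opposite direction to Tfec. Its log2 signal was 6.19, 6.18 and 5.96 in Zeb2hi CDPs, 6.48, 6.82 and 6.75 in Zeb2low CDPs, and 7.13 and 6.91 in pre-CD8 DCs. No 2 groups overlapped, and the order ran from Zeb2hi CDPs over Zeb2low CDPs to pre-CD8 DCs. Of all genes 20.2% were higher with no overlap from Zeb2hi to Zeb2low CDPs and 12.4% from Zeb2low CDPs to pre-CD8 DCs. From Zeb2hi CDPs to pre-CD8 DCs the share was 21.4%. Group means were 6.11 ± 0.13 (SD, n = 3), 6.68 ± 0.18 (SD, n = 3) and 7.02 ± 0.15 (SD, n = 2).

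Pre-CD8 DCs had 1.87-fold more Tfeb signal than Zeb2hi CDPs, a log2 difference of 0.91 ± 0.17 (SE; 95% interval 0.52 to 1.30; adjusted p = 0.00889), with a gap of 0.72 between the nearest arrays. Tfeb was the only one of the 3 tested members to pass in this comparison, where 17.6% of all genes passed and 6.51% did so upward. The call was lost without pre-CD8 array 1 (log2 difference 0.80, adjusted p = 0.0559), and the difference stayed between 0.80 and 1.01 without each array in turn. Blocking all arrays on replicate number gave an adjusted p of 0.0386.

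Zeb2low CDPs had 1.48-fold more Tfeb than Zeb2hi CDPs, a log2 difference of 0.57 ± 0.15 (SE; 95% interval 0.22 to 0.92; adjusted p = 0.0395), with a gap of 0.28. This too was the only call among the 3 tested members, where 14.8% of all genes passed and 4.5% did so upward, while 20.2% were higher with no overlap. The difference kept its sign without each array in turn (0.49 to 0.67), but the call held in 3 of these 8 fits. Leaving out Zeb2hi array 1, 2 or 3 gave an adjusted p of 0.0568, 0.109 or 0.152, and the call was lost too without Zeb2low array 2 (0.12) or array 3 (0.108). It was also lost with the arrays centred on their medians (log2 difference 0.41, adjusted p = 0.113) and with the replicate block over all arrays (adjusted p = 0.0811), and was kept when only the CDP arrays were blocked (adjusted p = 0.0268). CDP arrays of the same number differed by 0.28, 0.64 and 0.79.

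From Zeb2low CDPs to pre-CD8 DCs Tfeb differed by 0.34 ± 0.17 (SE; 95% interval -0.05 to 0.73; adjusted p = 0.432), which did not pass, although the arrays did not overlap (gap 0.094). In this comparison 27.7% of all genes had no overlap, 12.4% being higher, and 0.554% passed the test in either direction. By limma, 0 of the 4 family members passed it, and 0 had an unadjusted p under 0.05, against 1762 of all 13356 genes.

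Tfe3, a close relative of Tfeb with overlapping targets, had log2 signals of 5.70, 5.78 and 6.01 in Zeb2hi CDPs, 5.80, 6.60 and 6.21 in Zeb2low CDPs, and 6.59 and 6.16 in pre-CD8 DCs. Both pre-CD8 arrays were above the Zeb2hi arrays, and the Zeb2low arrays spanned nearly the whole range. Means were 5.83 ± 0.16 (SD, n = 3), 6.20 ± 0.40 (SD, n = 3) and 6.38 ± 0.30 (SD, n = 2). None of its differences passed the test. Pre-CD8 DCs differed from Zeb2hi CDPs by 0.55 ± 0.25 (SE; 95% interval -0.02 to 1.11; adjusted p = 0.17), with a gap of 0.15, where 21.4% of all genes were higher with no overlap. Zeb2low CDPs differed from Zeb2hi CDPs by 0.37 ± 0.22 (SE; 95% interval -0.13 to 0.88; adjusted p = 0.267). Pre-CD8 DCs differed from Zeb2low CDPs by 0.17 ± 0.25 (SE; 95% interval -0.39 to 0.74; adjusted p = 0.797).

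Mitf stayed near the filter level on every array. Its brighter probe set read 4.60, 4.50 and 4.75 in Zeb2hi CDPs, 4.42, 4.64 and 4.40 in Zeb2low CDPs, and 4.56 and 4.48 in pre-CD8 DCs. The groups overlapped, with means of 4.61 ± 0.13 (SD, n = 3), 4.49 ± 0.13 (SD, n = 3) and 4.52 ± 0.05 (SD, n = 2). The signal exceeded the array's own 40th percentile, which lay between 4.31 and 4.62, on 3 of 3, 1 of 3 and 1 of 2 arrays. The second Mitf probe set read between 2.16 and 2.46, below that percentile on all 8 arrays. Differences of the brighter probe set were -0.13 ± 0.14 (SE; 95% interval -0.45 to 0.19; adjusted p = 0.534) from Zeb2hi to Zeb2low CDPs, and -0.10 ± 0.16 (SE; 95% interval -0.45 to 0.26; adjusted p = 0.72) from Zeb2hi CDPs to pre-CD8 DCs. From Zeb2low CDPs to pre-CD8 DCs the difference was 0.03 ± 0.16 (SE; 95% interval -0.32 to 0.39; adjusted p = 0.946). These intervals bound a change in signal that close to the floor understates a change in transcript.

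**Figure D2:**
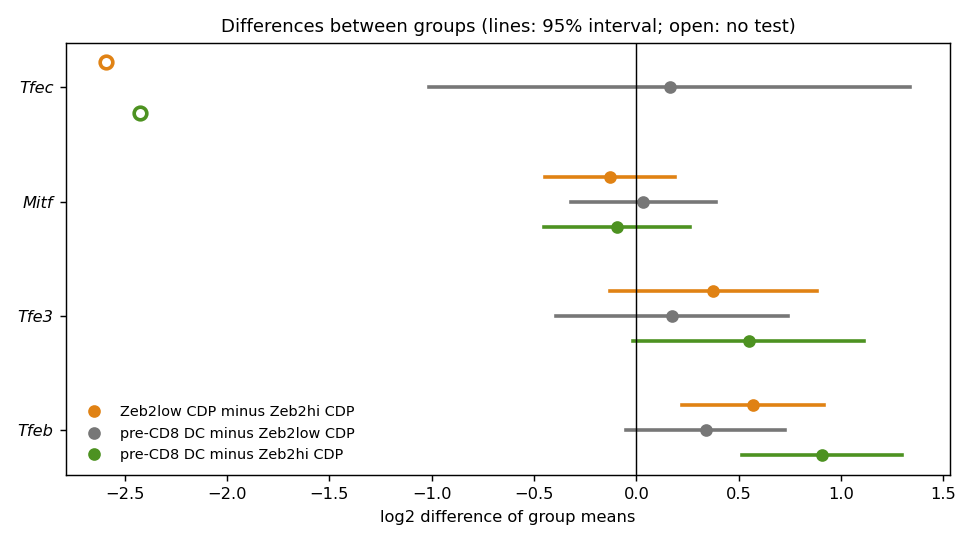
Log2 differences of group means for the 4 genes in each comparison, with 95% intervals where a test was run. Tfec is lower by 2.59 and 2.43 against Zeb2hi CDPs, drawn without an interval, and the Tfeb intervals of 0.22 to 0.92 and 0.52 to 1.30 lie above 0.

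Across the 8 arrays the log2 signal of Tfec had a Pearson correlation of 0.369 with Mitf, -0.63 with Tfe3 and -0.773 with Tfeb. These describe the same arrays and group differences as above and carry no p. The spread within groups differed among the members as well. The residual SD was 0.306 for Tfe3, at percentile 71.4 of the genes tested, 0.157 for Tfeb, at percentile 23.1, and 0.119 for Mitf, at percentile 10.0.

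The 6 genes whose signals followed Tfec most closely over the 8 arrays were Ebpl (r = 0.994), Ssr3 (0.986), Dhx15 (0.985), Armcx3 (0.981), Clcc1 (0.978) and Slc35f5 (0.976). Ssr3 encodes a subunit of the translocon-associated protein complex of the endoplasmic reticulum, Dhx15 an RNA helicase, Clcc1 a chloride channel of the endoplasmic reticulum and Slc35f5 a member of a solute carrier family. Each was lower in Zeb2low than in Zeb2hi CDPs, by a log2 difference of -1.23, -1.15, -0.72, -1.51, -0.87 and -0.68 in that order, all smaller than that of Tfec. For deviations from the group means their r with Tfec was 0.965, 0.96, 0.95, 0.909, 0.879 and 0.876. This is no separate observation, because the genes were picked by r over the same arrays. In all, 40 of 13355 genes had an r of at least 0.95 with Tfec and 233 an r of at least 0.9. The 8 arrays share their groups and amplification, so these values are a description.

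**Figure D3:**
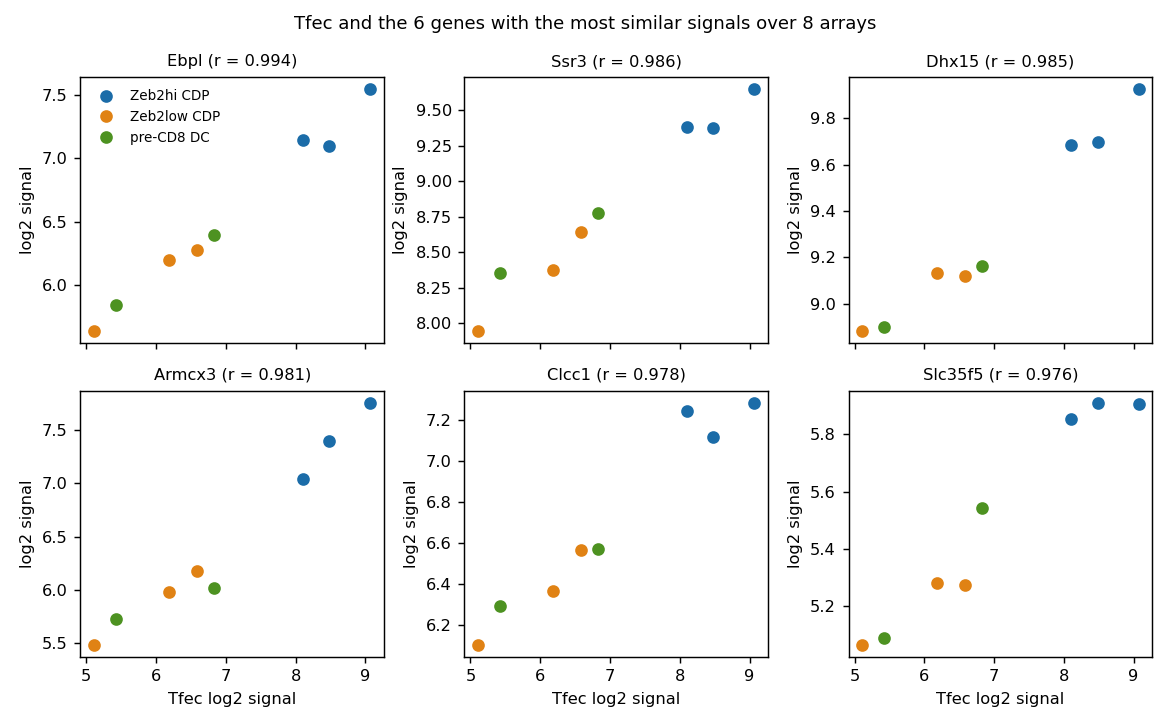
Log2 signal of the 6 genes most similar to Tfec against the log2 signal of Tfec, with 1 point per array coloured by group. In each panel the 3 Zeb2hi arrays lie at the upper right; r runs from 0.976 to 0.994 over 8 arrays.

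Next to Tfec on chromosome 6, the adjacent tested genes on either side had positive differences from Zeb2hi to Zeb2low CDPs that did not pass. Mdfic, on the side of lower coordinates, differed by 0.39 ± 0.12 (SE; adjusted p = 0.0629), and Tes, on the other side, by 0.30 ± 0.18 (SE; adjusted p = 0.263). One gene farther out, Gm4876 differed by 0.61 ± 0.20 (SE; adjusted p = 0.0746). On the opposite flank 2610001J05Rik was lower by -0.84 ± 0.13 (SE; adjusted p = 0.00644), and it was lower in pre-CD8 DCs than in Zeb2hi CDPs as well, by -0.69 ± 0.15 (SE; adjusted p = 0.0146).

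Among the regulators of MiT/TFE proteins, 24 of 25 listed genes were tested, and 2 fell and 1 rose from Zeb2hi to Zeb2low CDPs. The median log2 difference was -0.15, against 0.03 over all genes, of which 10.3% fell and 4.5% rose. Rheb, the small GTPase that activates mTORC1, read 8.28, 8.78 and 8.74 in Zeb2hi CDPs and 7.20, 6.92 and 6.78 in Zeb2low CDPs, with 8.18 and 7.32 in pre-CD8 DCs. The Zeb2low arrays were all below the others, and the fall of -1.63 ± 0.25 (SE; adjusted p = 0.00568) held under all 19 alternatives. From Zeb2hi CDPs to pre-CD8 DCs Rheb differed by -0.85 ± 0.28 (SE; adjusted p = 0.0652).

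Ppp3cb, a catalytic subunit of calcineurin, read 8.83, 8.44 and 8.27 in Zeb2hi CDPs, 7.64, 7.18 and 7.23 in Zeb2low CDPs, and 7.64 and 7.47 in pre-CD8 DCs. All Zeb2hi arrays were above the rest, where 21.5% of all genes were lower with no overlap in Zeb2low CDPs and 27.1% in pre-CD8 DCs. It fell by 1.16 ± 0.19 to Zeb2low CDPs (SE; adjusted p = 0.00794), under all 19 alternatives too, and by 0.96 ± 0.22 to pre-CD8 DCs (SE; adjusted p = 0.0187). The latter call was lost without pre-CD8 array 1 (adjusted p = 0.0578) or 2 (0.0779) or Zeb2hi array 2 (0.0536). Gsk3b, a kinase that phosphorylates these factors, rose by 0.58 ± 0.16 to Zeb2low CDPs (SE, adjusted p = 0.0414), and 9 of 19 alternatives lost that call. The adjusted p was 0.0803 under the replicate block over all arrays, and the block over the CDP arrays kept the call. In pre-CD8 DCs against Zeb2hi CDPs 1 of the 24 regulators fell and 0 rose by limma (1 with an unadjusted p under 0.05), against 11.1% and 6.51% of all genes, with a median of 0.02. An unadjusted p under 0.05 was found there for 4247 of all 13356 genes, in either direction. The genes of mTORC1, the Rag GTPases and the folliculin complex other than those named here did not pass in either comparison.

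Lysosomal enzymes and membrane proteins are the best known targets of TFEB and TFE3. Of 36 listed genes 33 were tested. From Zeb2hi to Zeb2low CDPs 7 fell and 1 rose, with a median log2 difference of -0.25, against 0.03 over all genes, of which 10.3% fell and 4.5% rose. The 7 were Gusb, Hexa, Ctsz, Ctsb, Lamp1, Ctsa and Laptm4a. The count of falls was 1 without Zeb2hi array 2 or 3, 3 without Zeb2low array 2, 4 without Zeb2low array 3, 4 with the replicate block over all arrays and 11 with the block over the CDP arrays.

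Cathepsin Z, encoded by Ctsz, was the only one of the 7 to keep its call under every alternative. It read 9.31, 9.35 and 9.31 in Zeb2hi CDPs, 8.37, 8.17 and 8.34 in Zeb2low CDPs, and 8.93 and 8.69 in pre-CD8 DCs. The 3 groups were separate, and the fall of -1.03 ± 0.13 to Zeb2low CDPs (SE; adjusted p = 0.00329) held under all 19. Its fall to pre-CD8 DCs was lost in 12 of 18 alternatives, the replicate block (adjusted p = 0.102) and the omission of pre-CD8 array 1 (0.0665) or 2 (0.19) among them. Gusb, the lysosomal beta-glucuronidase, fell by 1.37 ± 0.27 (SE; adjusted p = 0.0149), a call lost without Zeb2hi array 2 (adjusted p = 0.0696) or 3 (0.0666). Hexa, a subunit of beta-hexosaminidase, fell by 1.17 ± 0.32 (SE; adjusted p = 0.0398), a call that 8 of 19 alternatives lost, the replicate block over all arrays among them (adjusted p = 0.0656).

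Cd63, a tetraspanin of late endosomes and lysosomes, went the other way. Its signal was 7.84, 7.67 and 7.61 in Zeb2hi CDPs, 9.65, 9.98 and 10.03 in Zeb2low CDPs, and 9.90 and 9.64 in pre-CD8 DCs. All 5 arrays of the latter groups were above the Zeb2hi arrays, where 20.2% and 21.4% of all genes were higher with no overlap. It rose by 2.18 ± 0.16 to Zeb2low CDPs (SE; adjusted p = 0.000271) and by 2.06 ± 0.18 to pre-CD8 DCs (SE; adjusted p = 0.000301), under all alternatives run.

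From Zeb2hi CDPs to pre-CD8 DCs 4 lysosomal genes rose, Cd63, Ppt1, Man2b1 and Psap, and 3 fell, Tpp1, Ctsa and Ctsz, with a median of -0.15 against -0.02 over all genes. Among all genes 6.51% rose and 11.1% fell. The Psap call was lost in 5 of 18 alternatives. Ppt1, the palmitoyl-protein thioesterase, read 10.78 and 9.85 in pre-CD8 DCs, 8.81, 8.67 and 8.44 in Zeb2hi CDPs and 8.55, 8.995 and 8.61 in Zeb2low CDPs. It was high in pre-CD8 DCs alone. It rose by 1.67 ± 0.28 from Zeb2hi CDPs (SE; adjusted p = 0.00525), and its difference from Zeb2low CDPs was 1.60 ± 0.28 (SE; adjusted p = 0.0501), which did not pass. Tpp1, the lysosomal tripeptidyl peptidase, fell by 1.29 ± 0.30 (SE; adjusted p = 0.0202), a call lost with the replicate block (adjusted p = 0.0711) and without pre-CD8 array 2 (0.106), Zeb2hi array 2 (0.0704) or Zeb2hi array 3 (0.0586). Man2b1, the lysosomal alpha-mannosidase, rose by 1.26 ± 0.26 (SE; adjusted p = 0.0133), a call lost without pre-CD8 array 1 (adjusted p = 0.0838). The count of falls was 0 without pre-CD8 array 2 or Zeb2hi array 2 and 1 without Zeb2hi array 3, 1 with the replicate block, and the count of rises was 2 without pre-CD8 array 1.

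An E-box was common in front of the lysosomal genes. They were listed as known targets of factors that bind E-boxes, so the choice of list favours such an excess. CACGTG was found in the 250 bases before a start of 12 of the 30 lysosomal genes in the promoter table (40%), against 6.86% of all 27025 genes, and the longer TCACGTGA in 4 (13.3%), against 0.907%. Of the 11 V-ATPase genes with a promoter there, 2 held CACGTG (18.2%) and of the 23 autophagy genes 3 did (13%). The windows of 30 bases below (RefSeq, GRCm38.p6, each in the direction of transcription, TCACGTGA in capitals) are shown as examples of list genes with it, Ctsa and Atp6v1a, whose falls to Zeb2low CDPs passed the test, and Mcoln1 and Ctsd, whose differences did not. They lie at chr2:164833743-164833772 (plus strand), chr16:44139373-44139402 (minus strand), chr8:3500462-3500491 (plus strand) and chr7:142387908-142387937 (minus strand).
Ctsa: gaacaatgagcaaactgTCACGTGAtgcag
Atp6v1a: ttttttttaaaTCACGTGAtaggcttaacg
Mcoln1: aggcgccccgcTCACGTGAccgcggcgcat
Ctsd: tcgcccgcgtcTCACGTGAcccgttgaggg
Ctsa, the protective protein cathepsin A, fell by 0.90 ± 0.17 to Zeb2low CDPs (SE; adjusted p = 0.0123), lost without Zeb2hi array 2 (adjusted p = 0.0629) or 3 (0.0525), and by 0.91 ± 0.19 to pre-CD8 DCs (SE; adjusted p = 0.0132), lost without pre-CD8 array 2 (adjusted p = 0.0613) or Zeb2hi array 2 (0.0536). Mcoln1, the lysosomal calcium channel whose calcium release activates calcineurin, differed by 0.02 ± 0.14 from Zeb2hi to Zeb2low CDPs (SE; adjusted p = 0.947). Ctsd, encoding cathepsin D, differed by -1.05 ± 0.74 (SE; adjusted p = 0.343), a wide spread. The 12 lysosomal genes with CACGTG had a median log2 difference of -0.25 from Zeb2hi to Zeb2low CDPs, with 2 falls and 0 rises, and the 18 without it a median of -0.26, with 4 falls and 1 rise.

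The V-ATPase, the proton pump that acidifies lysosomes, had 15 of 17 listed genes tested. From Zeb2hi to Zeb2low CDPs 1 fell, Atp6v1a, where 10.3% of all genes did, and the median of the list was -0.42. Atp6v1a, the catalytic subunit, fell by 1.11 ± 0.23 (SE; adjusted p = 0.016), a call lost without Zeb2hi array 2 (adjusted p = 0.0704) or 3 (0.0591) or Zeb2low array 3 (0.0529). Over all alternatives the count of falls ranged from 0 to 7, and it was 0 without Zeb2hi array 2 or 3. In pre-CD8 DCs against Zeb2hi CDPs the median was 0.02, and Atp6v0a2, a membrane subunit, rose by 0.78 ± 0.22 (SE; adjusted p = 0.0391), a call that 10 of 18 alternatives lost.

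All 30 autophagy genes were tested, and 1 rose and 1 fell from Zeb2hi to Zeb2low CDPs. Gabarapl2, an ATG8 family protein, rose by 0.68 ± 0.18 (SE; adjusted p = 0.0355) and Atg14, a subunit of a lipid kinase complex of autophagy, fell by 0.72 ± 0.20 (SE; adjusted p = 0.046). The median was -0.16, and 14.8% of all genes were called there. Of 19 alternatives 7 lost the former call and 10 the latter. To pre-CD8 DCs 3 fell, Gabarapl1, Atg10 and Atg14, and 0 rose by limma (4 with an unadjusted p under 0.05), where 11.1% of all genes fell and 6.51% rose, with a median of 0.11 over the list. Of all 13356 genes, 4247 had an unadjusted p under 0.05 there, in either direction. The count of falls was 0 without pre-CD8 array 1, 1 without Zeb2hi array 2 or 3 and 2 with the replicate block. Of 18 alternatives 11 lost the call of Atg14 and 4 that of Atg10, with an adjusted p of 0.0564 for Atg10 under the replicate block and 0.0984 without pre-CD8 array 1. Gabarapl1 fell by 1.51 ± 0.35 (SE; adjusted p = 0.0209), lost without pre-CD8 array 1 (adjusted p = 0.132) or Zeb2hi array 2 (0.0744) or 3 (0.073).

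Between Zeb2low CDPs and pre-CD8 DCs, limma called 0 genes of the lysosomal, V-ATPase, autophagy and regulator lists, where it called 0.337% of all genes upward and 0.217% downward. At an unadjusted p under 0.05 there were 6, 3, 3 and 3 genes of these lists, of 33, 15, 30 and 24 tested, against 1762 of all 13356 genes. Medians were 0.22, 0.42, 0.25 and 0.18, against -0.03 over all genes.

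**Figure D4:**
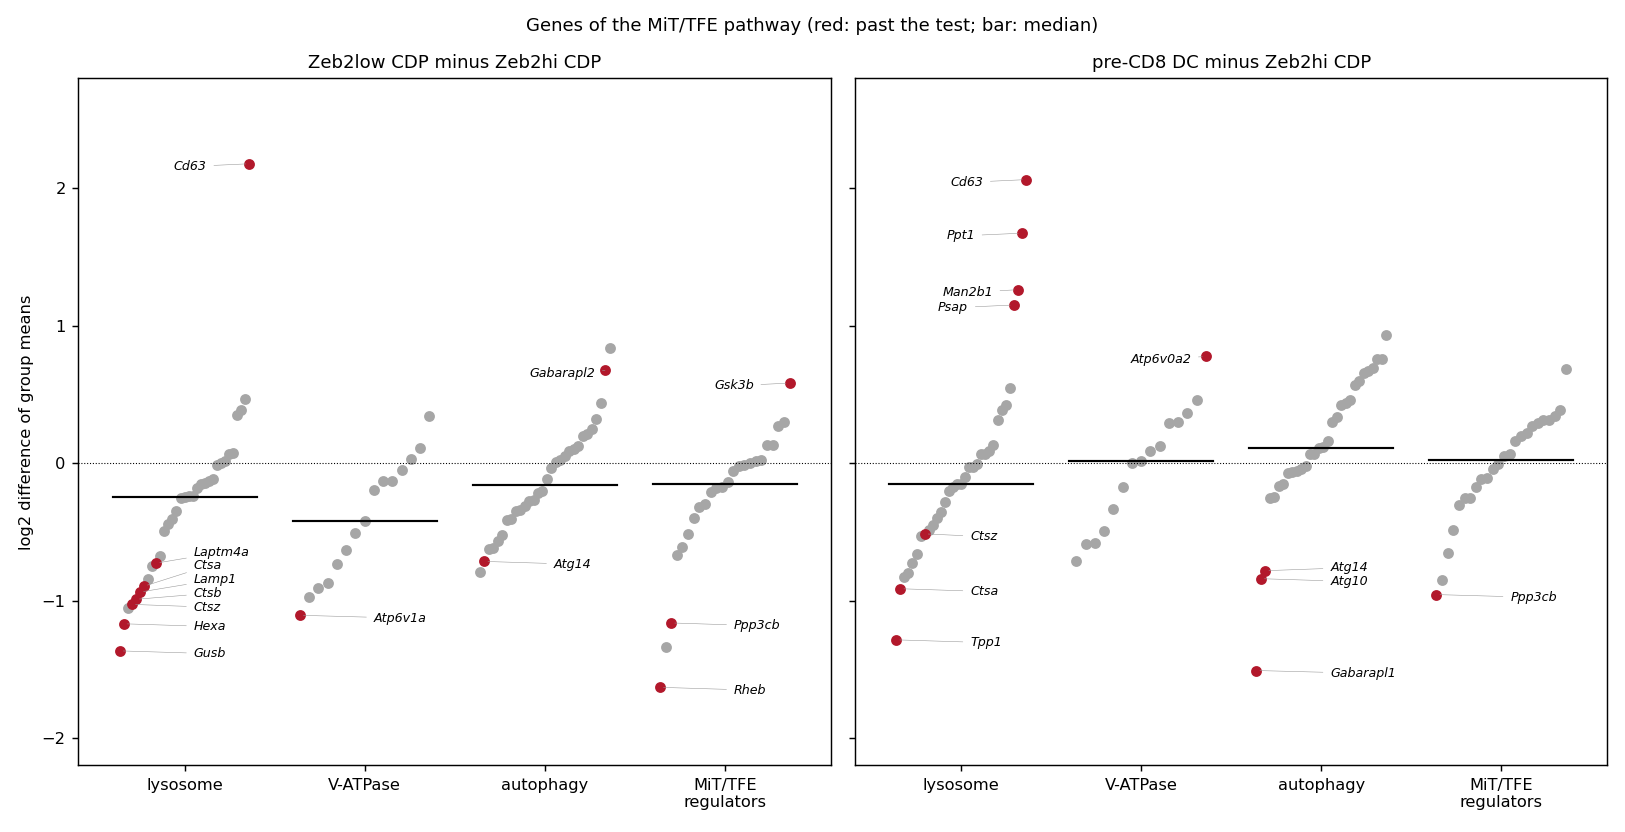
Log2 differences of group means from Zeb2hi CDPs for genes of the lysosome, V-ATPase, autophagy and MiT/TFE regulator lists, with 1 point per gene ordered by value, red where adjusted p was under 0.05, and a bar at the median. Lysosomal medians are -0.25 and -0.15, with Cd63 highest in both panels at 2.18 and 2.06.

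Genes linked to MITF, TFE3 or TFEC in osteoclasts and macrophages were largely near the floor, and 9 of 14 were tested. By limma 0 of the 9 passed from Zeb2hi to Zeb2low CDPs (2 with an unadjusted p under 0.05), where 14.8% of all genes passed. Of all 13356 genes, 4380 had an unadjusted p under 0.05 there. The median was 0.15. Csf1r, the receptor for macrophage colony-stimulating factor, read 9.16, 9.56 and 9.49 in Zeb2hi CDPs, 7.90, 8.83 and 8.59 in Zeb2low CDPs, and 8.06 and 7.23 in pre-CD8 DCs. All Zeb2hi arrays were above the others, where 21.5% of all genes were lower with no overlap in Zeb2low CDPs and 27.1% in pre-CD8 DCs. It fell by 1.75 ± 0.32 from Zeb2hi CDPs to pre-CD8 DCs (SE; adjusted p = 0.00779) under all 18 alternatives, while its difference in Zeb2low CDPs of -0.96 ± 0.29 did not pass (SE; adjusted p = 0.0562). It was the only one of the 9 to pass from Zeb2hi CDPs to pre-CD8 DCs, where 17.6% of all genes passed.

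Csf3r, the receptor for granulocyte colony-stimulating factor and a reported target of TFEC in macrophages, did not follow Tfec. It read 7.13, 8.03 and 7.43 in Zeb2hi CDPs, 6.95, 10.03 and 7.57 in Zeb2low CDPs, and 10.77 and 6.36 in pre-CD8 DCs. Zeb2low array 2 and pre-CD8 array 1 stood above the rest, and these were also the arrays with the highest summed neutrophil markers, 51082 and 61365. Csf3r is itself on that marker list, and the part of neutrophil RNA in its values was not tested. Its differences were 0.65 ± 1.09 from Zeb2hi to Zeb2low CDPs (SE; adjusted p = 0.693), 1.04 ± 1.22 from Zeb2hi CDPs to pre-CD8 DCs (SE; adjusted p = 0.606) and 0.38 ± 1.22 between the latter groups (SE; adjusted p = 0.917).

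Of 17 mast cell and pigment cell genes linked to MITF 8 were tested. From Zeb2hi to Zeb2low CDPs Cpa3, a mast cell protease, rose by 1.47 ± 0.39 (SE; adjusted p = 0.0378) and Pmel, a melanosome protein, by 0.77 ± 0.15 (SE; adjusted p = 0.0129). The median was 0.40, and 7 of 19 alternatives lost the Cpa3 call and 2 the Pmel call. Of all genes 4.5% rose from Zeb2hi CDPs to Zeb2low CDPs and 6.51% to pre-CD8 DCs. To pre-CD8 DCs Kit, the receptor for stem cell factor, rose by 1.02 ± 0.26 (SE; adjusted p = 0.0295) and Pmel by 0.77 ± 0.17 (SE; adjusted p = 0.0151; 0.0546 with the replicate block), with a median of 0.57. The Kit call was lost in 4 of 18 alternatives, without pre-CD8 array 1 (adjusted p = 0.0622) or 2 (0.134), without array 1 of both groups (0.0517) and with only the 2 groups fitted (0.0553). Summed markers of mast cells, basophils and eosinophils were 472 to 481 in Zeb2hi CDPs, 517 to 1604 in Zeb2low CDPs and 671 to 3151 in pre-CD8 DCs. Their part in these rises was not tested.

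Factors of the macrophage lineage, 14 of 16 tested, were mixed. Spi1 read 9.33, 9.64 and 9.46 in Zeb2hi CDPs, 8.70, 9.56 and 9.26 in Zeb2low CDPs, and 10.14 and 9.58 in pre-CD8 DCs. The Zeb2hi range overlapped both others, and none of its differences passed: -0.30 ± 0.24 to Zeb2low CDPs (SE; adjusted p = 0.403), 0.38 ± 0.27 to pre-CD8 DCs from Zeb2hi CDPs (SE; adjusted p = 0.378) and 0.69 ± 0.27 between the latter groups (SE; adjusted p = 0.335). Zeb2, by which the CDPs had been sorted, was lower than in Zeb2hi CDPs by 1.59 in Zeb2low CDPs and by 2.54 in pre-CD8 DCs. These are given without a test, because the sort chose Zeb2hi cells for a high reporter signal. From Zeb2low CDPs to pre-CD8 DCs Zeb2 differed by -0.95, also given without a test, because Zeb2low cells were sorted for a low signal of the same reporter. Runx1, a regulator of blood cell development, fell by 1.19 ± 0.15 and 1.43 ± 0.17 from Zeb2hi CDPs (SE; adjusted p = 0.0029 and 0.00123). Bhlhe40, a helix-loop-helix repressor, rose by 1.29 ± 0.31 and 1.90 ± 0.34 (SE, adjusted p = 0.026 and 0.0075). The former call was lost in 6 of 19 alternatives, the replicate block over all arrays among them (adjusted p = 0.054), and was kept with the block over the CDP arrays. Pparg, a lipid-sensing nuclear receptor of macrophages, rose to pre-CD8 DCs by 0.65 ± 0.17 (SE, adjusted p = 0.0328). That call was lost in 9 of 18 alternatives, the replicate block among them (adjusted p = 0.0564). On this list 1 gene rose and 2 fell to Zeb2low CDPs, where 4.5% of all genes rose and 10.3% fell. To pre-CD8 DCs 2 rose and 2 fell, against 6.51% and 11.1% of all genes. Zeb2, set by the sort, is counted among the falls of both. The list's medians were 0.04 and 0.30.

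Because Tfec is a macrophage gene, markers of monocytes and macrophages are set beside it. Of 21 measured markers 18 to 19 were above the array's 40th percentile on every array. The list includes Ctsg and Prtn3, granule proteases also made by granulocyte precursors, which are not on the neutrophil list. Their falls and their share of the sum are therefore not particular to monocytes and macrophages. Their summed linear intensity was 20845 to 21030 in Zeb2hi CDPs, 8452 to 13931 in Zeb2low CDPs and 10152 to 18979 in pre-CD8 DCs, so that by this sum Zeb2hi CDPs lay above the others. By the mean log2 signal of the same 21 markers the groups overlapped, at 8.21, 8.09 and 8.01 in Zeb2hi CDPs, 7.39, 8.10 and 7.94 in Zeb2low CDPs, and 8.31 and 7.48 in pre-CD8 DCs. The part of monocyte or macrophage RNA in the Tfec values was not tested. Of 19 markers tested 3 fell to Zeb2low CDPs, Ctsg, Prtn3 and F13a1, and 1 rose, Itgam (adjusted p = 0.027), with a median of 0.03, where 10.3% of all genes fell and 4.5% rose. The Itgam call was lost with the replicate block over all arrays (adjusted p = 0.0622) and kept with the block over the CDP arrays. To pre-CD8 DCs 5 fell, F13a1, Ctsg, Prtn3 and Cx3cr1 among them, and 2 rose, Itgam and Lyz1, with a median of 0.01, where 11.1% of all genes fell and 6.51% rose. These 4 falls were by log2 differences of -3.79, -2.55, -1.74 and -1.15 in that order. Of 18 alternatives 4 lost the call of Prtn3 and 2 that of Cx3cr1. With the replicate block over all arrays Prtn3, Itgam and Lyz1 lost their calls (adjusted p = 0.0526, 0.069 and 0.132), and 13 of 18 alternatives lost that of Lyz1. The count of rises to pre-CD8 DCs was 0 with that block and without pre-CD8 array 1 or Zeb2hi array 3, 1 without Zeb2hi array 2 or Zeb2low array 2 or 3, and 5 without pre-CD8 array 2. F13a1, a coagulation factor subunit made by monocytes, read 10.61, 10.52 and 10.48 in Zeb2hi CDPs, 7.90, 8.10 and 8.19 in Zeb2low CDPs, and 7.91 and 5.58 in pre-CD8 DCs. It separated Zeb2hi CDPs from the rest as Tfec did, where 21.5% of all genes were lower with no overlap in Zeb2low CDPs and 27.1% in pre-CD8 DCs.

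Neutrophil markers had a lower sum in Zeb2hi CDPs than in the other groups. The sum over 16 genes, of which 15 to 16 were above the 40th percentile, was 12507 to 22561 in Zeb2hi CDPs, 24025 to 51082 in Zeb2low CDPs and 31643 to 61365 in pre-CD8 DCs. By the mean log2 signal of the same 16 genes the CDP groups overlapped. It was 8.37, 9.16 and 7.94 in Zeb2hi CDPs, 8.88, 10.73 and 10.07 in Zeb2low CDPs, and 11.20 and 9.43 in pre-CD8 DCs. From Zeb2hi CDPs 5 of the 16 rose to Zeb2low CDPs and 6 to pre-CD8 DCs, and by limma 0 fell (0 with an unadjusted p under 0.05), with medians of 1.42 and 2.00. Among all genes 4.5% and 6.51% rose in these comparisons, and 10.3% and 11.1% fell. An unadjusted p under 0.05 was found for 4380 and 4247 of all 13356 genes, in either direction. Without each array in turn the counts of rises ranged from 0 to 8, with 0 without Zeb2hi array 3, and from 0 to 10, with 0 without pre-CD8 array 1. To Zeb2low CDPs 13 rose with the block over the CDP arrays. In both CDP groups the array with the highest sum, array 2, had the lowest Tfec signal of its group, 8.10 in Zeb2hi and 5.11 in Zeb2low CDPs, whereas the pre-CD8 array with the highest sum, array 1, had the higher Tfec signal, 6.83. Its part in the Tfec values was not tested.

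Markers of cDC1 commitment rose in 5 of 9 tested genes to Zeb2low CDPs and in 7 to pre-CD8 DCs from Zeb2hi CDPs. Of all genes 4.5% and 6.51% rose in these comparisons. The sum of these markers was 880 to 1105, 2786 to 3077 and 5292 to 5300 in the 3 groups. Id2, an inhibitor of helix-loop-helix factors required for cDC1 cells, rose by 4.35 ± 0.28 to Zeb2low CDPs (SE; adjusted p = 0.00018), and Batf3, their defining transcription factor, by 1.57 ± 0.20 (SE; adjusted p = 0.00323). Among other lists, counts of rises and falls to Zeb2low CDPs were 4 and 0 of 10 for DC progenitors, 4 and 0 of 8 for plasmacytoid DCs, 2 and 0 of 8 for mast cells, basophils and eosinophils, 2 and 1 of 7 for B cells, 3 and 0 of 5 for T, NK and innate lymphoid cells, and 0 and 0 of 4 for erythroid cells and megakaryocytes (2 with an unadjusted p under 0.05, against 4380 of all 13356 genes), where 4.5% of all genes rose and 10.3% fell. Without each array in turn these counts of rises ranged from 2 to 4, 0 to 5, 0 to 2, 1 to 3, 1 to 4 and 0 to 1, and plasmacytoid DC markers had 0 rises without Zeb2hi array 2 or 3 or Zeb2low array 2. For cDC1 commitment the count stayed at 5 to Zeb2low CDPs and ranged from 6 to 8 to pre-CD8 DCs.

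**Figure D5:**
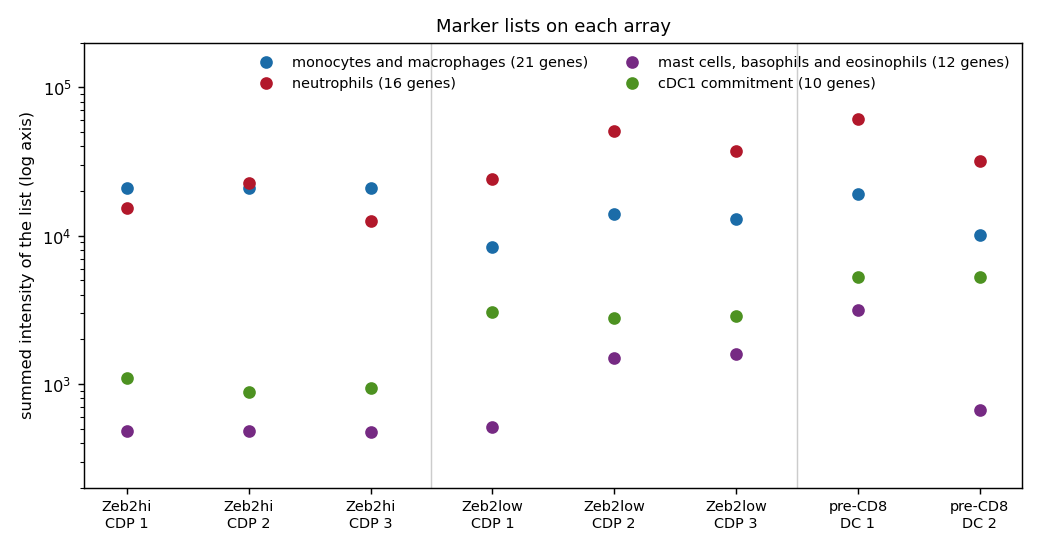
Summed linear intensity (log axis) of 4 marker lists on each of the 8 arrays, with grey lines between groups. Monocyte and macrophage markers are at 20845 to 21030 in Zeb2hi CDPs and at or below 18979 elsewhere, although by mean log2 signal the same list overlaps (8.01 to 8.21 in Zeb2hi CDPs, up to 8.31 on pre-CD8 array 1), and neutrophil markers are highest on pre-CD8 array 1 at 61365.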

How the data were processed

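RNA of DC progenitors was measured on 8 arrays, grouped by the sample titles. The values that the authors deposited are linear probe set intensity, which the submitters' processing notes credit to RMA and Affymetrix Expression Console; their versions were not given in sources used here. RMA gives no detection call, so differences near the floor are understated. The table holds 28853 probe sets, of which the platform annotation gives 21789 exactly 1 gene, 1621 several and 5443 no name used here; the last 2 kinds were left out. No 2 arrays shared more than 0.159% of their values.

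After log2 transformation, a probe set was kept where 2 or more arrays exceeded their 40th percentile, and each gene was read from its brightest one, leaving 13356 genes. The comparisons used limma 3.58.1 in R 4.3.3 (lmFit and eBayes, two-sided, all 8 arrays in 1 fit, 5 residual degrees of freedom), with Benjamini-Hochberg adjustment over all genes within a comparison and a threshold of 0.05; the procedure was tested on simulated data. "Rose", "fell" and "passed" refer to this test, a value after ± with SE is its standard error, and the number of arrays limits the precision. List medians are medians of log2 differences over tested genes, and no set test was run. A statement that the arrays of groups were separate for a gene is a description. Of all genes 41.8% had no overlap between Zeb2low and Zeb2hi CDPs, 27.7% between pre-CD8 DCs and Zeb2low CDPs, and 48.4% between pre-CD8 DCs and Zeb2hi CDPs. Genes named were the 4 members, up to 3 genes per list, direction and comparison past the test with the largest difference (where none passed, the 2 with the smallest p), the 6 genes most correlated with Tfec, the nearest 2 tested genes on either side of it, and Zeb2, Spi1 and Csf3r; others were named after their values were seen. Members and lists were chosen with earlier results of these data known.

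The titles number replicates without saying what a number means. Deviations from the group means correlated by 0.478, 0.407 and 0.308 between CDP arrays of the same number and by -0.425 to 0.143 between others. The numbers were taken to pair the samples, and a replicate block was fitted as an alternative to the main fit, which has none. That check did not cover the pre-CD8 arrays, which the block over all arrays pairs too. By signals of all tested genes, pre-CD8 array 1 was nearest Zeb2low array 2 (r = 0.958, against 0.883 with Zeb2low array 1). Pre-CD8 array 2 was nearest Zeb2low array 3 (0.966, against 0.955 with Zeb2low array 2). Other alternatives were the filter, the normalization, array weights, an intensity trend, fits of 2 groups only, the choice of probe set and leaving out each array; the fit without array 1 of both Zeb2low CDPs and pre-CD8 DCs and the second Mitf probe set were chosen after seeing the data. Promoter sequences are from RefSeq (GRCm38.p6); all 4 members matched by symbol, and the order of genes next to Tfec is from the RefSeq gene table of that assembly.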

Additional observations from a re-analysis of the deposited data

How the results depend on the processing

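Tfec kept its decrease from Zeb2hi CDPs under every alternative run, and no alternative gave a call to Mitf, Tfe3 or Tfec between pre-CD8 DCs and Zeb2low CDPs. Of the 1978 genes called from Zeb2hi to Zeb2low CDPs, the count was 4467 with array weights, 4070 with the replicate block over the CDP arrays and 1552 with the block over all arrays, and 521 to 2224 without each array in turn (521 without Zeb2hi array 2, 574 without Zeb2hi array 3, 1054 and 1008 without Zeb2low arrays 2 and 3). From Zeb2low CDPs to pre-CD8 DCs 74 genes were called, 16 with these 2 groups only, 15 with the replicate block over all arrays, 44 without array 1 of both groups and 21 to 147 without each array in turn. From Zeb2hi CDPs to pre-CD8 DCs the count of 2352 was 1593 with the replicate block and 1172 to 2775 without each array. The Tfeb difference from Zeb2hi to Zeb2low CDPs lost its call when centred on array medians (0.41) and with the replicate block over all arrays (0.57), and was 0.49 to 0.67 without each array; to pre-CD8 DCs it was 0.80 to 1.01. Of the list genes called without a block, the replicate block over all arrays lost 12 of 47 from Zeb2hi to Zeb2low CDPs, 13 of 52 from Zeb2hi CDPs to pre-CD8 DCs and 1 of 2 from Zeb2low CDPs to pre-CD8 DCs, and the block over the CDP arrays lost 0 of 47; among the members it changed no call but that of Tfeb from Zeb2hi to Zeb2low CDPs. Signs turned, with no call, for Mitf with its second probe set (0.072 from Zeb2hi to Zeb2low CDPs, -0.15 from Zeb2low CDPs to pre-CD8 DCs) and, from Zeb2low CDPs to pre-CD8 DCs, without each array or without array 1 of both groups, for Tfec (-0.54 to 0.87, -0.43), Mitf (-0.010 to 0.11, -0.035) and Tfe3 (-0.042 to 0.39, -0.24). The cause was not tested. Centring on array medians moved the median of all genes from Zeb2hi to Zeb2low CDPs by -0.16, and of the calls there 30.4% were upward, against 14.2% centred and 40.9% with quantile normalization; from Zeb2low CDPs to pre-CD8 DCs 60.8% were upward, against 72.3% centred. Fits that leave 1 pre-CD8 array assume that it varies like the other groups. Signal near the floor limits Mitf.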
